A study of Mus musculus with 6 samples.

Results

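The heat shock chaperones were followed in CD8+ T cells that had been isolated by cell sorting out of the lymph nodes draining B16F10 melanomas in female C57Bl6/J mice. The set holds 10 genes chosen by name, and all 10 were found among the 49315 genes of the count table. They are the inducible HSP70 genes Hspa1a and Hspa1b, the constitutive HSP70 gene Hspa8, the HSP70 partners Hsph1 and Dnajb1, the HSP90 genes Hsp90aa1 and Hsp90ab1, the mitochondrial chaperonin genes Hspd1 and Hspe1, and the transcription factor gene Hsf1. The combination group received HCW9218 under the skin and an antibody against PD1 into the peritoneum (n = 3 mice), and the monotherapy group received HCW9218 alone (n = 3 mice). By the series title HCW9218 joins TGF-βRII and IL-15. Every mouse was labelled WT, was treated once when the tumor measured 50 to 100 mm3, and was killed on day 5. The sample labels write the tumor line as B26F10 where the design text has B16F10, and no ages are given. Both groups carried HCW9218, so each comparison bears on the PD1 antibody given on top of HCW9218, and untreated mice are not analysed here.

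Heat shock proteins are molecular chaperones that hold, fold or refold other proteins. HSP70 binds exposed hydrophobic stretches, J-domain proteins bring it clients and trigger ATP hydrolysis, and nucleotide exchange factors let the client go, often on to HSP90. HSF1 is kept inactive by chaperones in unstressed cells and, once released, binds heat shock elements, which are inverted repeats of GAA, and switches on the inducible genes. T cells raise chaperone synthesis when they are activated and start to grow.

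Libraries held 34568074 to 40101346 counts. The CD8 T cell markers Cd8a, Cd8b1, Cd3d, Cd3e, Cd3g and Trac summed to 4241 to 5717 CPM (counts per 1000000 counts, scaled by TMM factors) in combination libraries and 4640 to 5722 CPM in monotherapy libraries, and none of the 6 was at 0. Marker sums for other cells were 1.58 to 5.12 and 4.01 to 7.82 CPM for CD4 T cells, 46.1 to 77.8 and 39.5 to 57.1 CPM for B cells, and 12.3 to 14.3 and 9.07 to 20.6 CPM for myeloid cells, in combination and monotherapy libraries in that order. In the same order they were 5.29 to 5.88 and 3.26 to 7.07 CPM for dendritic cells and 120.2 to 138.2 and 136.2 to 168.8 CPM for stromal and endothelial cells. Pecam1 held most of the counts of the stromal and endothelial list, at 3930 to 5544 per library, with Cdh5 at 4 to 15. The NK cell list separated the groups, at 153.5 to 190.8 CPM in combination libraries and 114.9 to 132.5 CPM in monotherapy libraries, with Eomes, which CD8 T cells also express, holding most of its counts and Ncr1 at 2 to 13 counts per library. The erythroid list separated them the other way, at 1.03 to 1.85 CPM in combination libraries and 2.10 to 7.50 CPM in monotherapy libraries. No gene of either list was called, and the part of these cells in the chaperone values was not tested. Combination replicates 2 and 3 stood apart in holding melanocyte transcripts: the sum of Dct and Tyrp1 was 0, 582 and 743 in the counts of combination replicates 1, 2 and 3, and 1, 0 and 0 in monotherapy replicates 1, 2 and 3. Cytosolic ribosomal protein genes held a share of 17.3%, 12.0% and 7.52% in combination replicates 1, 2 and 3, against 12.9%, 11.4% and 10.9% in monotherapy replicates 1, 2 and 3, so that combination replicates 1 and 3 lay at the extremes of the 6 libraries. In bulk RNA a change in the number of expressing cells and a change in RNA per cell cannot be told apart.

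With the combination the inducible HSP70 genes Hspa1a and Hspa1b rose, while the abundant chaperones Hspa8, Hsp90aa1, Hsp90ab1, Hspd1 and Hspe1 and the regulator Hsf1 did not pass the test. Of the 10 genes 2 rose and 0 fell at an adjusted p under 0.05 in edgeR's quasi-likelihood test, against a background of 0.951% of 15142 tested genes higher and 0.132% lower. In that test 3 of the 10 had an unadjusted p under 0.05, all higher, against 4.61% of all genes. The 2 that rose are near-identical copies and may share reads. The log2 fold change was above 0 for 9 of the 10, with a median of 0.23, while over all tested genes 7549 lay above 0 and 7593 below, with a median of 0.00.

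**Figure D1:**
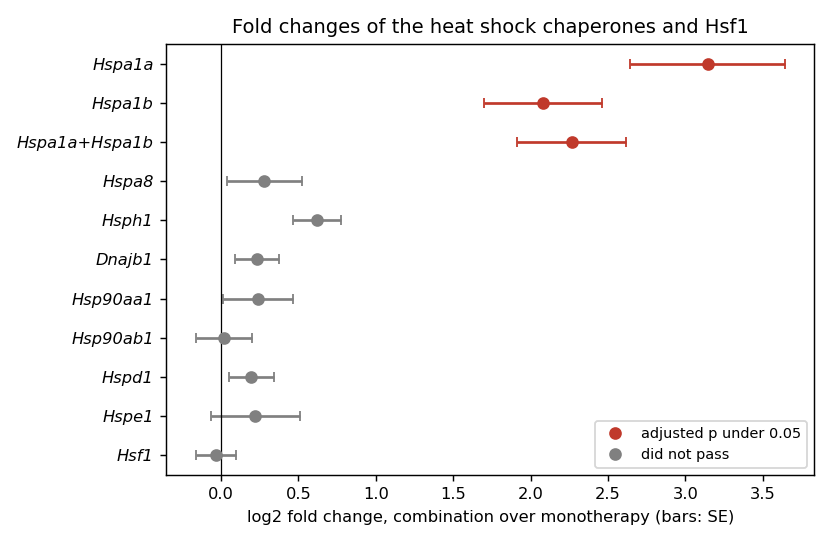
Log2 fold change of combination over monotherapy for each gene and for the summed counts of Hspa1a and Hspa1b, with bars for the standard error (n = 3 libraries a group). Hspa1a at 3.14, Hspa1b at 2.08 and their sum at 2.26 stand to the right, Hsph1 lies at 0.62, and the other points lie between -0.03 and 0.28.

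Hspa1a and Hspa1b encode the stress-inducible cytosolic HSP70 and lie side by side on chromosome 17 of GRCm38, both on the minus strand, at chr17:34969190-34972156 and chr17:34956436-34959238. Their annotated transcripts are 2967 and 2803 bases long, and the coding parts are 99.4% identical over 1929 aligned columns, with 8 bases different and 3 in a gap. Of all stretches of 100 bases in the Hspa1a transcript, 47.1% also occur in the Hspa1b transcript, and 49.9% the other way round. Reads from such stretches cannot be assigned to either copy, and no source used here says how the authors' counting treated them. The sum of both rows is therefore given beside each.

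The upstream sequences of the pair, from RefSeq on GRCm38.p6, are shown because they are the control regions of the members that rose. Each is the 250 bases before the transcript start on the minus strand, at chr17:34972157-34972406 for Hspa1a and chr17:34959239-34959488 for Hspa1b, and capitals mark GAANNTTC or TTCNNGAA, a pair of inverted GAA units as in a heat shock element.
Hspa1a: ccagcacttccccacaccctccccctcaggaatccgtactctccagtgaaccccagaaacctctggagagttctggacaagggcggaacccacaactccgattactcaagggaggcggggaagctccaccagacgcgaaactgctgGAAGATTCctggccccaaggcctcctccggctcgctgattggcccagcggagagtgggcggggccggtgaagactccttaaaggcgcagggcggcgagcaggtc
Hspa1b: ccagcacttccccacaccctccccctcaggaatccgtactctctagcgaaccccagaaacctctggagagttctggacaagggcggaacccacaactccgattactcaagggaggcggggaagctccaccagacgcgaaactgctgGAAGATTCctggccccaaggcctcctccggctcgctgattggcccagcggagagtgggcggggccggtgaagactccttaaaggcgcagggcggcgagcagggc
The windows are 98.8% identical and differ at 3 of 250 bases, which lie 207, 204 and 2 bases before the start. Both hold 1 match to GAANNTTC, 104 to 97 bases before the start, and none to TTCNNGAA. Both motifs read the same on either strand, and 12.8% of 32851 RefSeq promoters hold at least 1 of them in the same 250 bases.

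Hspa1b reached 151, 319 and 518 counts with the combination (replicates 1, 2 and 3), against 53, 99 and 93 counts in monotherapy replicates 1, 2 and 3. As CPM these were 4.59, 8.41 and 13.4 with the combination and 1.48, 2.52 and 2.24 with monotherapy. The lowest combination library was above the highest monotherapy library, and combination replicate 3 was the highest of all. The mean was 8.81 ± 4.43 CPM in combination and 2.08 ± 0.539 CPM in monotherapy (SD, n = 3 each). The log2 fold change was 2.08 ± 0.38 (SE; edgeR adjusted p = 0.0344).

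Hspa1a was the scarcer copy, with 48, 101 and 142 counts in combination replicates 1, 2 and 3, against 14, 5 and 15 counts in monotherapy replicates 1, 2 and 3. Its groups did not overlap either, and the library with 5 counts, monotherapy replicate 2, was not the lowest for Hspa1b. The mean was 2.60 ± 1.11 CPM in combination and 0.293 ± 0.144 CPM in monotherapy (SD, n = 3 each). The log2 fold change was 3.14 ± 0.50 (SE; edgeR adjusted p = 0.0184). Hspa1a made up 24.1%, 24.0% and 21.5% of the pair's counts in combination replicates 1, 2 and 3, and 20.9%, 4.81% and 13.9% in monotherapy replicates 1, 2 and 3. The exact 95% binomial intervals, which cover counting error only, ran from 18.4% to 30.7%, 20.04% to 28.43% and 18.4% to 24.9% in combination replicates 1, 2 and 3, and from 11.9% to 32.6%, 1.58% to 10.9% and 7.99% to 21.9% in monotherapy replicates 1, 2 and 3. The interval of monotherapy replicate 2 lay below those of all combination libraries, while those of monotherapy replicates 1 and 3 overlapped them.

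Summed, the pair had 6.05, 11.1 and 17.1 CPM in combination replicates 1, 2 and 3, against 1.87, 2.64 and 2.61 CPM in monotherapy replicates 1, 2 and 3. All combination libraries lay above all monotherapy libraries, a separation in this direction that 7.17% of tested genes showed. The sum was 4.80-fold higher with the combination, a log2 fold change of 2.26 ± 0.35 (SE; edgeR adjusted p = 0.0171).

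The call on the sum depended on which libraries were kept, while its size changed less. Without monotherapy replicates 1, 2 and 3 the log2 fold change was 2.14, 2.35 and 2.33, with edgeR adjusted p = 0.145, 0.0803 and 0.0900. Without combination replicate 2 it was 2.31 (adjusted p = 0.0737), and without combination replicates 1 and 3 it was 2.59 and 1.85 (adjusted p = 2.88e-03 and 3.87e-03). Of the single copies, Hspa1a and Hspa1b passed without combination replicate 1 or 3 and did not pass without any other library (adjusted p = 0.0768 to 0.109 for Hspa1a and 0.114 to 0.239 for Hspa1b). Limma-voom called Hspa1a (adjusted p = 0.0425) and missed Hspa1b and the sum (adjusted p = 0.0884 and 0.0514).

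Within the combination group the pair's level followed the same order over libraries as the melanocyte transcripts, at 6.05, 11.1 and 17.1 CPM beside 0, 582 and 743 counts of Dct and Tyrp1. The melanocyte list as a whole, with 1 of 6 members tested and Pmel holding most of its counts, summed to 29.1 to 52.8 CPM in combination libraries and 20.9 to 27.1 CPM in monotherapy libraries. In combination replicate 1, where Dct, Tyrp1, Tyr, Mlana and Sox10 were at 0, the pair had 6.05 CPM, against 1.87 to 2.64 CPM in the monotherapy libraries. A fit with that library as the only combination library gave a log2 fold change of 1.34 for the sum. In the same fit it was 2.30 for Hspa1a and 1.13 for Hspa1b. A test on a lone library would assume that it varies like the monotherapy libraries, so effect sizes only are given. With Dct and Tyrp1 as a covariate the log2 fold change of the sum was 1.33 (edgeR adjusted p = 0.0564), and none of the 10 genes was called. That covariate was high only in combination replicates 2 and 3, so it is nearly confounded with the treatment in them. The covariate estimate thus rests largely on combination replicate 1, and lay close to the 1.34 from that library alone. It is not a separate adjustment for melanocyte RNA. The part of melanocyte RNA in the pair's level was not tested.

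**Figure D2:**
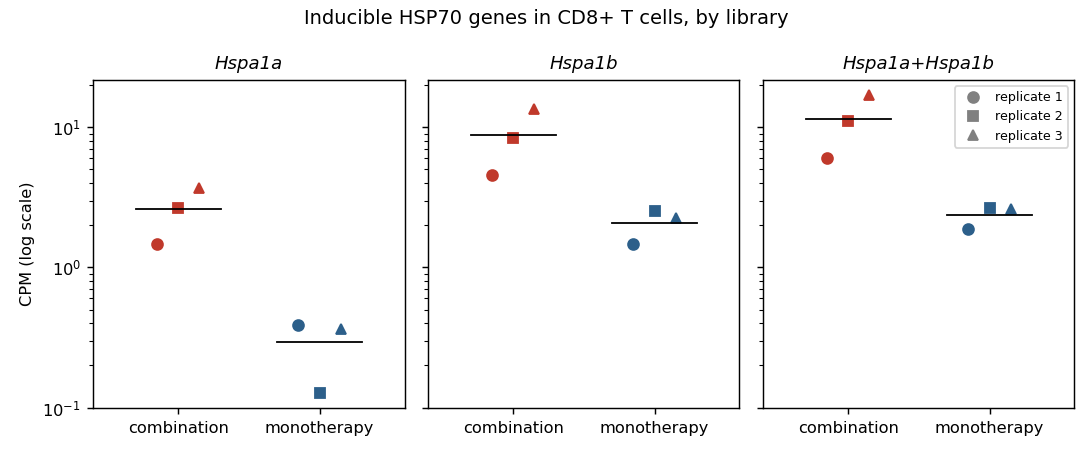
CPM on a log axis for Hspa1a, Hspa1b and their sum in 3 combination and 3 monotherapy libraries, with a marker shape for each replicate and a line at the group mean. In each panel the 3 combination points lie above the 3 monotherapy points, and combination replicate 1, at 6.05 CPM for the sum, is the lowest of its group.

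The other HSP70 machinery genes differed by less. On GRCm38 Hsph1 lies at chr5:149614287-149636376 on the minus strand, Dnajb1 at chr8:83608193-83612653 on the plus strand and Hspa8 at chr9:40800984-40810087 on the plus strand. Hsph1 encodes HSP110, a nucleotide exchange factor for HSP70 that also holds unfolded proteins. It had 184, 234 and 233 CPM in combination replicates 1, 2 and 3, against 142, 123 and 157 CPM in monotherapy replicates 1, 2 and 3. The groups did not overlap, yet Hsph1 missed the threshold, with a log2 fold change of 0.62 ± 0.15 (SE; edgeR adjusted p = 0.138; DESeq2 adjusted p = 0.0163; edgeR with no count filter 0.0245). It passed without combination replicate 1 (edgeR log2 fold change 0.75, adjusted p = 0.0389) and in no other fit that left out a single library. Separation with the combination above was seen for 3 of the 10 genes, namely Hspa1a, Hspa1b and Hsph1, and for none below, against 7.17% and 7.54% of tested genes.

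Dnajb1, the J-domain partner that stimulates HSP70 and takes part in shutting HSF1 off, had 222, 193 and 170 CPM in combination replicates 1, 2 and 3, against 169, 173 and 157 CPM in monotherapy replicates 1, 2 and 3. The ranges overlapped through combination replicate 3, and the log2 fold change was 0.23 ± 0.14 (SE; edgeR adjusted p = 0.825). Hspa8, the constitutive HSP70 that does most routine folding and drives clathrin uncoating, had 2736, 3122 and 1894 CPM in combination replicates 1, 2 and 3, against 2528, 1852 and 2004 CPM in monotherapy replicates 1, 2 and 3. Its groups overlapped widely, with a log2 fold change of 0.28 ± 0.24 (SE; edgeR adjusted p = 0.928). In counts Hspa8 exceeded the summed inducible pair by 453, 282 and 111 times in combination replicates 1, 2 and 3, and by 1355, 701 and 769 times in monotherapy replicates 1, 2 and 3. Hspa8 was thus the main source of cytosolic HSP70 counts in every library.

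HSP90 matures kinases and receptors, among them kinases of T cell receptor signalling, and is made from an inducible gene, Hsp90aa1, at chr12:110690605-110702728, and a constitutive gene, Hsp90ab1, at chr17:45567775-45573271, both on the minus strand. Hsp90aa1 had 650, 626 and 371 CPM in combination replicates 1, 2 and 3, against 541, 434 and 421 CPM in monotherapy replicates 1, 2 and 3. Combination replicate 3 was the lowest of the 6 libraries and combination replicate 1 the highest, and the log2 fold change was 0.24 ± 0.23 (SE; edgeR adjusted p = 0.931). Hsp90ab1 kept close to 1 level, at 2119, 2054 and 2040 CPM in combination replicates 1, 2 and 3 and 1915, 2064 and 2159 CPM in monotherapy replicates 1, 2 and 3. Its log2 fold change of 0.02 had a 95% interval from -0.48 to 0.52, taken from the standard error with 4 residual degrees of freedom. The count ratio of Hsp90ab1 to Hsp90aa1 was 3.26, 3.28 and 5.51 in combination replicates 1, 2 and 3, and 3.54, 4.76 and 5.13 in monotherapy replicates 1, 2 and 3, so the groups overlapped.

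Hspd1 and Hspe1 encode the mitochondrial chaperonin HSP60 and its lid HSP10, and stand head to head on chromosome 1, with Hspd1 on the minus strand at chr1:55077835-55088243 and Hspe1 on the plus strand at chr1:55088132-55091307. Their annotated exons share 112 bases on opposite strands, so without a stated strand setting reads from that stretch cannot be told apart. Hspd1 had 262, 267 and 223 CPM in combination replicates 1, 2 and 3, against 240, 194 and 222 CPM in monotherapy replicates 1, 2 and 3, a log2 fold change of 0.20 ± 0.15 (SE; edgeR adjusted p = 0.884). Hspe1 spread far more widely in the combination group, at 292, 203 and 115 CPM in combination replicates 1, 2 and 3, against 211, 156 and 156 CPM in monotherapy replicates 1, 2 and 3. Combination replicate 1 was the highest and combination replicate 3 the lowest of all 6 libraries, and the log2 fold change was 0.22 ± 0.29 (SE; edgeR adjusted p = 0.957).

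The order of Hspe1 within the combination group matched that of the ribosomal protein share, at 17.3%, 12.0% and 7.52% of counts, and that of the share of counts in genes with under 1000 exonic bases, at 7.22%, 5.34% and 3.60%. Their part in the Hspe1 values was not tested. Without combination replicate 1 the Hspe1 log2 fold change was -0.11, and without combination replicate 3 it was 0.51 (edgeR adjusted p = 0.941 and 0.209). With combination replicate 1 as the only combination library it was 0.74. The count ratio of Hspd1 to Hspe1 was 0.899, 1.31 and 1.93 in combination replicates 1, 2 and 3 and 1.14, 1.25 and 1.42 in monotherapy replicates 1, 2 and 3.

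A pair of short upstream stretches of 30 bases, also from RefSeq on GRCm38.p6, are shown because they hold the heat shock element letters of members that did not pass, with the same use of capitals. The first lies at chr1:55088053-55088082 on the plus strand, 95 to 66 bases before the RefSeq start of Hspe1, and the second at chr5:149636351-149636380 on the minus strand, 44 to 15 bases before a RefSeq start of Hsph1. That RefSeq start lies 40 bases inside Hsph1 as annotated in the count data. The capital letters of the Hsph1 stretch thus fall within the annotated gene, not before it.
Hspe1: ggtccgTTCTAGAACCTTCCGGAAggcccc
Hsph1: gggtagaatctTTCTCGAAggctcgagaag
The Hspe1 window holds overlapping 3-unit elements, with 2 matches to the form in which a further inverted GAA unit continues the pair, which 0.466% of the RefSeq promoters contain. The same stretch falls in the 250 bases before an alternative Hspd1 start at position 55087932, read from the other strand. Hsph1 holds 1 match to TTCNNGAA, and Dnajb1 holds none of these letters in the window used. Promoters of 6 of the 10 genes were in the table. A match is a run of letters and was not tested for binding.

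Hsf1, the regulator itself, at chr15:76477445-76500972 on the plus strand, had 66.8, 62.4 and 77.8 CPM in combination replicates 1, 2 and 3, against 69.9, 67.0 and 74.5 CPM in monotherapy replicates 1, 2 and 3. The monotherapy values all lay inside the combination range. Its log2 fold change was -0.03 ± 0.13 (SE; edgeR adjusted p = 0.987), with a 95% interval from -0.39 to 0.33. HSF1 is controlled mainly after translation, and protein activity was not measured here.

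**Figure D3:**
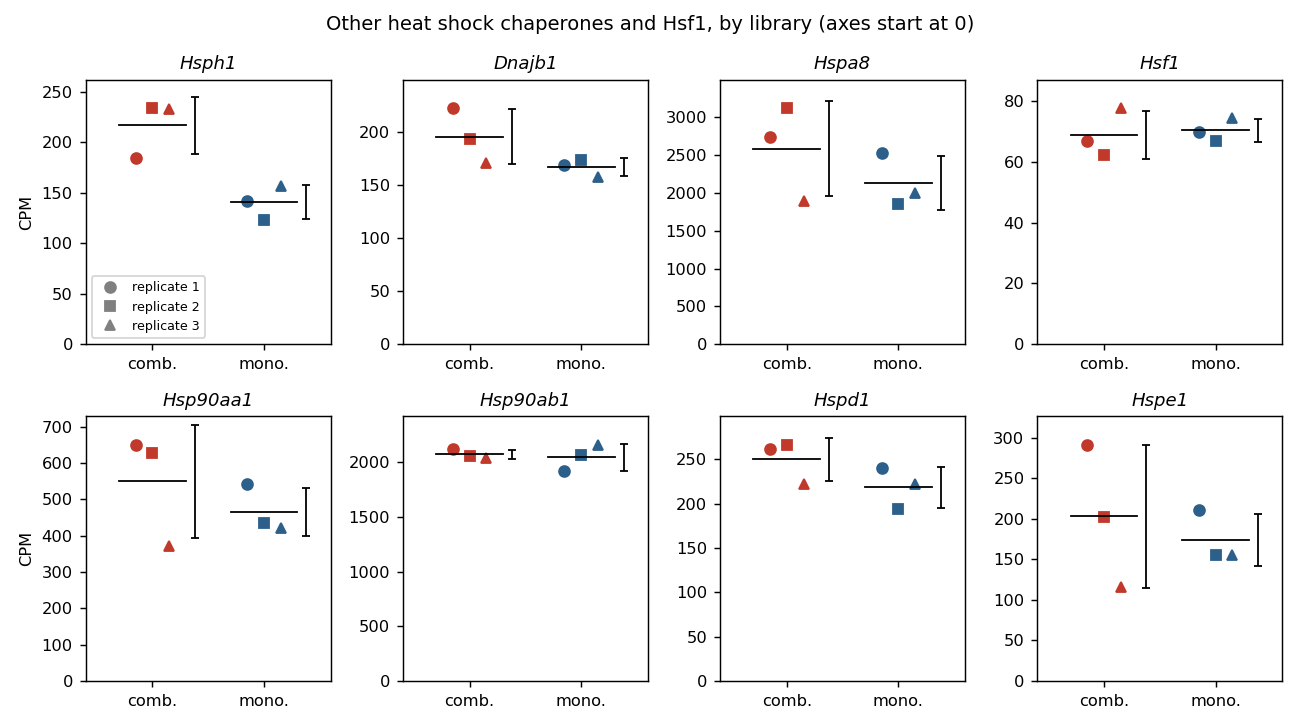
CPM of the 8 other genes in 3 combination and 3 monotherapy libraries, on axes that start at 0, with a line at the mean and a bar for ± SD. Hsph1 is the panel where the groups separate, and combination replicate 3 is the lowest of its group in 6 of the 8 panels, all but Hsph1 and Hsf1.

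Set against exonic length, as CPM per kilobase over all 6 libraries, Hsp90ab1 stood first at 686 ± 27.7 and Hspa8 second at 548 ± 121 (SD, n = 6). Their ranges overlapped, with Hsp90ab1 higher in 5 of 6 libraries. Hsp90aa1 and Hspe1 followed at 129 ± 29.5 and 128 ± 41.6 CPM per kilobase, also overlapping, then Hspd1 at 88.7 ± 10.4, whose range overlapped that of Hspe1. Dnajb1 at 56.4 ± 7.29 lay below Hspd1 and above Hsf1 in every library. Hsf1 at 34.6 ± 2.77 overlapped Hsph1 at 24.6 ± 6.42, and both were far above Hspa1b at 1.94 ± 1.66 and Hspa1a at 0.488 ± 0.488 CPM per kilobase, whose ranges over the 6 libraries overlapped although Hspa1b was higher in each. The share of all 10 genes was 0.589%, 0.656% and 0.574% in combination replicates 1, 2 and 3, and 0.563%, 0.517% and 0.553% in monotherapy replicates 1, 2 and 3. Of the 10 genes' counts, Hspa8, Hsp90aa1 and Hsp90ab1 made up 83.7% to 85.7% in combination libraries and 85.6% to 85.9% in monotherapy libraries.

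The wider chaperone network outside the 10 genes showed 0 calls in edgeR in 9 lists of HSP70 and HSP90 relatives, J-domain proteins, exchange factors, small heat shock proteins, the cytosolic chaperonin, HSF1 targets, HSF factors and mitochondrial proteostasis. Over all tested genes 0.951% were called higher and 0.132% lower. With 2 to 26 tested genes in a list, 0 calls lie near that share. An unadjusted p under 0.05 was reached in edgeR by 2 J-domain genes, 3 HSF1 targets and 1 gene of the HSF list, all lower. Over all tested genes 8% reached it in either direction. DESeq2 called 1 J-domain gene and 1 HSF1 target, both lower, and over all 15142 genes it called 72 lower. Among 20 tested HSP90 relatives and co-chaperones 16 lay above 0, with a median log2 fold change of 0.11, and 0 had an unadjusted p under 0.05 in edgeR. Chordc1 and Ptges3, which assist HSP90, had 226 ± 50.7 and 104 ± 9.97 CPM in combination and 171 ± 30.2 and 87.4 ± 0.328 CPM in monotherapy (SD, n = 3 each). For Ahsa2, related to the HSP90 ATPase activator AHA1, the estimate was 0.28 ± 0.15 (log2, SE). The chaperonin CCT, which folds actin and tubulin, and its partner prefoldin had 12 of 14 tested genes above 0 with a median of 0.12, and Pfdn4, Vbp1 and Tcp1, the smallest in p, had log2 fold changes of 0.28, 0.22 and 0.16.

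J-domain proteins split evenly, with 13 of 26 tested genes above 0 and a median log2 fold change of -0.01. Dnaja1, a cytosolic partner of HSP70, had 661 ± 167 CPM in combination and 468 ± 90.0 CPM in monotherapy, with overlapping groups (log2 fold change 0.50 ± 0.23 SE; edgeR adjusted p = 0.631). Dnajb9, which works in the endoplasmic reticulum, had 65.9, 52.9 and 32.9 CPM in combination replicates 1, 2 and 3, against 91.9, 108 and 90.3 CPM in monotherapy replicates 1, 2 and 3. The combination libraries all lay below, with a log2 fold change of -0.94 ± 0.23 (SE; edgeR adjusted p = 0.125; DESeq2 adjusted p = 5.88e-03). Dnajb4, a cytosolic J-domain protein, had a log2 fold change of -0.46 ± 0.19.

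Among the other HSP70 relatives 4 of 10 tested genes lay above 0. Hspa5, the HSP70 of the endoplasmic reticulum, had 593, 583 and 434 CPM in combination replicates 1, 2 and 3, against 818, 687 and 633 CPM in monotherapy replicates 1, 2 and 3, a log2 fold change of -0.41 ± 0.19 (SE; edgeR adjusted p = 0.631). Hspa1l, which lies next to Hspa1a and is best known from testis, was at 0.482 ± 0.0493 CPM in combination and 0.914 ± 0.383 CPM in monotherapy (log2 fold change -0.92, adjusted p = 0.652), a value on the other side of 0 from its neighbour's 3.14. Hspa4, another exchange factor of the HSP110 type, had 218 ± 4.90 CPM in combination and 192 ± 7.51 CPM in monotherapy.

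The lists of exchange factors, small heat shock proteins and HSF1 targets outside the families had estimates on both sides of 0. Bag3, an exchange factor that links HSP70 to autophagy, had 3.38 ± 0.154 CPM in combination and 3.08 ± 1.06 CPM in monotherapy, and Bag1 and Sil1 had log2 fold changes of 0.15 and -0.13. Of 8 genes listed by name as small heat shock proteins 2 passed the count filter, Hspb6 and Hspb11, with log2 fold changes of -0.15 and 0.12. With so few tested, the list says little about the family. Hspb1, the best-known heat-inducible member, had 1 to 6 counts per library and was not tested. In the list of HSF1 targets outside the families 8 of 15 lay below 0. Gadd45b and Rgs2, both also induced by other stimuli, were at -0.87 ± 0.19 and -0.83 ± 0.28 (SE; edgeR adjusted p = 0.0951 and 0.376), and Mafk was at -0.40. DESeq2 called Gadd45b lower (adjusted p = 4.57e-03). Serpinh1, a collagen chaperone named here after its value was seen, had the largest estimate of that list at 1.40 ± 0.78 (SE) from 5 to 50 counts per library, with edgeR adjusted p = 0.766.

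Hsf2, a second heat shock factor, had 8.15 ± 0.697 CPM in combination and 10.9 ± 0.553 CPM in monotherapy (SD, n = 3 each), with separate groups and edgeR adjusted p = 0.459. Sirt1, a deacetylase that acts on HSF1, and Hsf4 had log2 fold changes of -0.20 and 0.60. In mitochondrial proteostasis 4 of 15 tested genes lay above 0, and Htra2, Phb2 and Spg7 had log2 fold changes of -0.18, 0.15 and -0.12.

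Immediate-early genes, which like inducible HSP70 are induced quickly by stress and stimulation, lay on the other side of 0. All 17 tested genes had a log2 fold change below 0, with a median of -0.58, and Egr1 and Jun fell, by 0.76 ± 0.14 and 0.97 ± 0.19 (SE) on the log2 scale (edgeR adjusted p = 0.0320 and 0.0478). Nr4a1, Klf6 and Dusp1 missed the threshold at -0.56, -0.60 and -1.09 (edgeR adjusted p = 0.109, 0.109 and 0.111). In 11 of the 17 all combination libraries lay below all monotherapy libraries, against 7.54% of tested genes. Leaving out any monotherapy library or combination replicate 2 left 0 of them called, without combination replicate 1 there were 4, and DESeq2 called 9. Over all tested genes 0.132% were called lower in the main fit, with 28 genes lower without combination replicate 1 and 72 in DESeq2. Without combination replicate 2 only 4 genes of all were lower, and without monotherapy replicates 1, 2 and 3 only 4, 5 and 2. The list was written with earlier results of these data known.

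**Figure D4:**
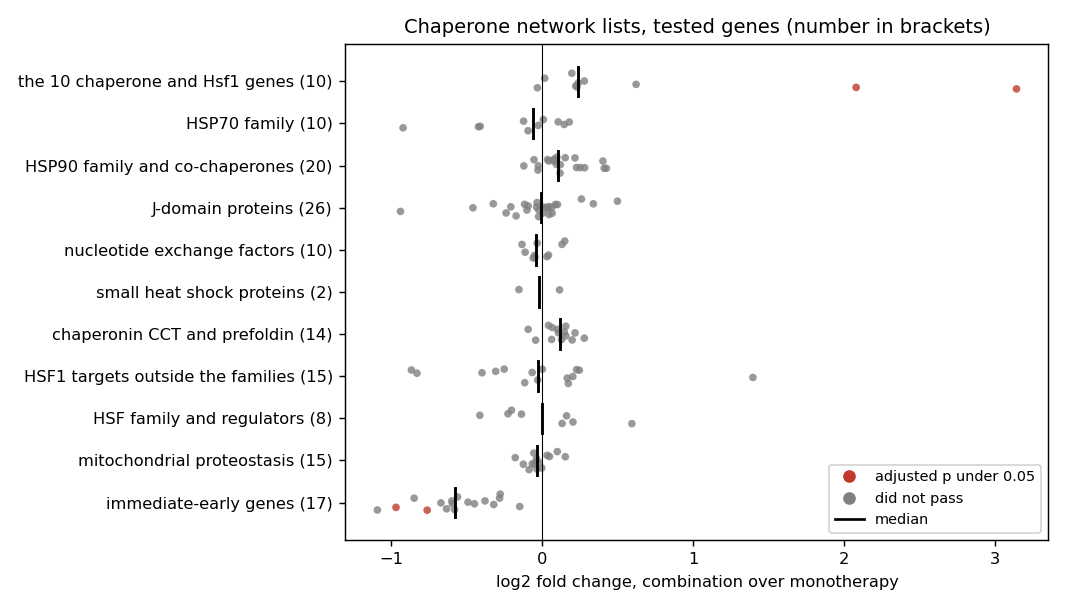
Log2 fold change of combination over monotherapy for every tested gene of the 10 chaperone and Hsf1 genes and of 10 further lists, a point per gene, with a bar at the list median and red for an adjusted p under 0.05. Red points are Hspa1a and Hspa1b on the right and Jun and Egr1 on the left, and the medians run from -0.58 for immediate-early genes to 0.23 for the chaperone and Hsf1 genes.

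The genes whose pattern over the 6 libraries was most like that of the summed pair were Cenpf, Kif14, E2f8, Mki67 and Neil3, taken from 9935 candidates with a mean of at least 2 CPM by the root mean square difference of centred log2 CPM, which ran from 0.34 to 0.37. Cenpf had 19.1, 29.7 and 33.0 CPM in combination replicates 1, 2 and 3, against 7.94, 9.20 and 7.72 CPM in monotherapy replicates 1, 2 and 3. Mki67 had 88.7, 143 and 210 CPM in combination replicates 1, 2 and 3, against 47.0, 56.6 and 46.9 CPM in monotherapy replicates 1, 2 and 3. Both were lowest of their group in combination replicate 1 and highest in combination replicate 3. That order largely follows from picking genes by likeness to the pair. The summed Dct and Tyrp1 counts had it too, at 0, 582 and 743 in combination replicates 1, 2 and 3. The likeness is a description of 6 libraries.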

How the data were processed

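The authors deposited raw counts, as integers per gene, for 49315 genes in 6 libraries, and the per-library files and the series table were identical in 6 of 6. A further 6 columns of that table were not used. The submitters' processing notes list DESeq2, Subread 1.5.2, featureCounts and STAR 2.5.2b. The build, the strand use and the handling of multi-mapping reads were not given in the sources used here. Of 48970 genes found in GENCODE M21 (GRCm38), 91.4% had the same coordinates, as did 9 of the 10 members. Counts were fitted in R 4.3.3 with edgeR 4.0.16 (filterByExpr, 15142 genes; TMM factors 0.901 to 1.12; quasi-likelihood F-test, Benjamini-Hochberg, threshold 0.05, no covariate). P-values measure the spread between 3 mice a group. Groups and replicate numbers came from the titles. Alternatives used limma 3.58.1 and DESeq2 1.42.0, other scalings and filters, left-out libraries, a replicate block and a melanocyte covariate. The fit was tested on simulated data. Members and gene lists were chosen with earlier results of these data known. Named genes were all members, the genes of each list past the threshold and up to 3 more with the smallest p, and the 5 genes most like the summed pair. Library pairs differed by 9.94 to 296 in chi-square per gene, so none was a duplicate. The shares of ribosomal protein and short genes were added after the data were seen.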

Additional observations from a re-analysis of the deposited data

How the results depend on the processing

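Over 16 alternatives the summed Hspa1a and Hspa1b kept a log2 fold change above 0. It missed the threshold in limma-voom (2.17, adjusted p = 0.0514) and with Dct and Tyrp1 as a covariate (1.33, edgeR adjusted p = 0.0564), which was high only in combination replicates 2 and 3. It also missed without combination replicate 2 or any single monotherapy library (edgeR adjusted p = 0.0737 to 0.145). Leaving out a single library gave log2 fold changes of 1.85 to 2.59. Of the 10 genes, 3 were called higher with no count filter and 3 in DESeq2 (Hsph1 added in both). The count was 1 with total counts only, 1 in limma-voom, 0 with the covariate and 0 to 3 when a library was left out. No member was called lower in any of them. Over all genes 144 were higher and 20 lower, against 340 and 113 with no count filter, 282 and 72 in DESeq2, 231 and 57 with the replicate block, and 834 and 628 without combination replicates 2 and 3. The fit without combination replicates 2 and 3 has 1 combination library and no measure of spread within that group. Its counts therefore cannot be compared with those of the other fits. With the covariate 123 were lower, and left-out libraries gave 32 to 233 higher and 2 to 49 lower. The group estimates with the covariate rest largely on combination replicate 1.

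The replicate block left Hspa1a and Hspa1b called and called 2 HSF1 targets, 1 J-domain gene and 6 immediate-early genes lower. Same-numbered libraries deviated from their group means with correlations of 0.15, -0.06 and 0.28 for replicates 1, 2 and 3. Differently numbered libraries had -0.23 to 0.12, so replicates 1 and 3 had the highest values. Whether the numbers pair the mice was not tested, and the main fit does not use them.

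HSF1 targets called lower numbered 1 with total counts only, 2 with no filter, 1 in DESeq2 and 0 to 1 over left-out libraries. J-domain genes called lower numbered 1 with total counts only, 1 with no filter, 1 in DESeq2 and 0 to 1 over left-out libraries. Immediate-early genes called lower numbered 8 with no filter, 9 in DESeq2, 1 in limma-voom, 0 with the covariate and 0 to 4 over left-out libraries. The fit without combination replicates 2 and 3 leaves 1 combination library, so its counts of calls for the gene lists are not given. With the covariate 1 HSF regulator was lower, and HSP90 relatives called higher were 0 to 1 over left-out libraries.

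Log2 fold changes near 0 changed sign, none past the threshold. Without combination replicate 1 they were 0.01 for Hsf1, -0.11 for Hspe1, -0.27 for Hspb11, -0.0028 for Bag1 and -0.0033 for Pfdn4. Without combination replicate 2 they were 0.054 for Hsf1 and 0.0048 for Hspb6. Without monotherapy replicate 1 they were -0.014 for Hsp90ab1 and -0.10 for Bag3, and without monotherapy replicate 3 0.0080 for Hsf1. Hsp90ab1 was at -0.0025 with total counts only, Sil1 at 0.14 with the covariate and 0.13 without combination replicates 2 and 3, and Hspb6 at 0.0023 there. Over single left-out libraries the ranges were -0.13 to 0.054 for Hsf1, -0.11 to 0.51 for Hspe1, -0.014 to 0.055 for Hsp90ab1, -0.10 to 0.35 for Bag3, -0.27 to 0.40 for Hspb11, -0.22 to 0.0048 for Hspb6 and -0.0033 to 0.53 for Pfdn4. The causes were not tested. Among the 10 genes Hspa1a had the fewest counts, at 5 to 15 per monotherapy library.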
